A study of Mus musculus with 36 samples.

Results

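The 10 genes described here encode the inflammasome and the pore formers of pyroptosis: the sensors Nlrp3, Nlrc4, Naip5, Aim2 and Nlrp1b, the adaptor Pycard (ASC), the proteases Casp1 and Casp4 (caspase-11 of the mouse) and the gasdermins Gsdmd and Gsdmc2. They were chosen by symbol, with earlier results of these data known, so counts of members called beside the share of all genes are description only. All 10 were found by Ensembl identifier among the 52636 genes listed in each file. In E18.5 intestines with the D387A autoprocessing mutant of caspase-8 and no cFLIP, and in those with catalytically dead caspase-8, Casp4, Nlrp3 and Gsdmc2 RNA rose, while Gsdmd, the executioner of pyroptosis, differed by less than 2-fold against Mlkl-/- intestines except where Casp1 was also missing from the C362A background. Loss of Casp1 lowered Nlrp3 and Gsdmc2 RNA and raised Naip5 RNA in the D387A background, and Casp4 RNA stayed above the control level. In mouse embryonic fibroblasts (MEFs), 5 of the 10 genes had too few reads to be tested.

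In an inflammasome, a cytosolic sensor recognises a microbial product or a disturbance of the cell, assembles with the adaptor ASC and activates caspase-1, which matures the cytokines IL-1β and IL-18 and cleaves gasdermin D into a pore that kills the cell by pyroptosis. NAIP proteins bind bacterial flagellin or secretion-system proteins and signal through NLRC4, AIM2 binds cytosolic DNA, NLRP1B responds to bacterial proteases, and NLRP3 responds to many disturbances of the cell. Caspase-11 binds lipopolysaccharide itself and cleaves gasdermin D without caspase-1, in the non-canonical pathway. The NAIP-NLRC4 inflammasome is known to act in intestinal epithelial cells, in which gasdermin C genes are also expressed.

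RNA was sequenced from whole E18.5 intestines and from MEFs, with 3 libraries per genotype and 36 in all. The D387A set comprised Mlkl-/- controls (Mlkl KO), Casp8 1xDA/1xDA (the Casp8 D387A knock-in, which alone among the genotypes carries intact Mlkl), Casp8 1xDA/1xDA Cflar-/- Mlkl-/-, and this last genotype with Casp1-/-, with Casp1-/- Ifnar1-/- or with Casp1-/- Fadd-/-. The C362A set comprised its own Mlkl-/- controls, Casp8 C362A/C362A Mlkl-/- (the knock-in of catalytically dead caspase-8), the same with Casp1-/-, and Casp8 C362A/C362A Cflar-/- Mlkl-/-. MEFs came from embryos without head and internal organs, and were either Mlkl-/- or of the Cflar-/- genotype of the D387A set. Cflar encodes cFLIP, the inactive partner of caspase-8, Fadd its adaptor, Mlkl the effector of necroptosis and Ifnar1 a subunit of the type I interferon receptor. Since every genotype but Casp8 1xDA/1xDA lacked Mlkl, the comparisons concern cells that could not undergo necroptosis, and Casp8 1xDA/1xDA differed from its control at both genes. Below, 1xDA Cflar-/- and C362A Cflar-/- stand for these Mlkl-/- genotypes, likewise with Casp1-/-, Ifnar1-/- or Fadd-/- where those genes are missing too, and C362A stands for Casp8 C362A/C362A Mlkl-/-.

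Between 17943524 and 32307629 reads per library fell on genes. Casp1 had at most 5 reads in each of the 12 libraries labelled Casp1-/- and at least 952 in every other intestine, and a count of 0, found in 3 of the 12, allowed at most 0.0910 RPKM (3 reads; counting error only). Fadd RNA fell by 5.84 on the log2 scale in Fadd-/- intestines, and Ifnar1 reads fell by 1.25 in Ifnar1-/- intestines, against log2 fold changes from -0.05 to 0.12 in the other genotypes of that set. Cflar reads differed by log2 fold changes from -0.39 to 0.12 in the 5 Cflar-/- intestine genotypes and by -0.61 in Cflar-/- MEFs against Mlkl-/-, and Mlkl reads remained in Mlkl-/- libraries, so that reads of these last 2 genes do not check the labels. All 10 enterocyte markers had reads in every intestine genotype. In MEFs 5 of the 10, among them Fabp1, Alpi and Sis, had none, and the 8 fibroblast markers summed to 4173 to 4898 RPKM against 234 to 999 RPKM in intestines. The third 1xDA Cflar-/- Casp1-/- embryo stood apart from the others of its genotype, with 65.8 RPKM of Casp4 against 21.6 and 20.9, and its values are given apart where a result was found to rest on it. Titles of the D387A libraries begin with a number that the Mlkl-/- and 1xDA Cflar-/- libraries share and each of the other genotypes has to itself; what it marks is not stated, and its part cannot be told apart from that of the genotype. In whole intestines, moreover, fewer cells of a type and less RNA per cell cannot be told apart.

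The genes lie on GRCm38 at chr9:5298517-5307265 (Casp1, + strand), chr9:5308828-5336783 (Casp4, +), chr11:59541568-59566956 (Nlrp3, +), chr17:74425438-74459142 (Nlrc4, -), chr13:100211739-100246323 (Naip5, -), chr1:173350879-173466040 (Aim2, +), chr11:71153102-71230733 (Nlrp1b, -), chr7:127989708-127993867 (Pycard, -), chr15:75862327-75867408 (Gsdmd, +) and chr15:63824346-63845177 (Gsdmc2, -). Casp1 and Casp4 are neighbours on chromosome 9. Sequence shared with close copies limits 2 of the members. Of the 50-base windows in Gsdmc2 transcripts, 51.3% also occur in another gene, mostly Gsdmc3 and Gsdmc4, and of those in Naip5 transcripts 36.9% do, mostly in Naip6. Only uniquely aligned reads were used, so a read wholly within a shared window cannot be assigned, and how reads on overlapping genes were divided is not given in the sources used here. Pycard overlaps Gm45205 on the other strand, with 11.5% of its windows in common. Aim2 overlaps Cadm3 on the other strand and Nlrc4 a pseudogene, but Nlrc4, Aim2 and Nlrp1b shared at most 1.45%, Casp4 0.240%, and Casp1, Gsdmd and Nlrp3 none.

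RefSeq promoters were at hand for 8 of the 10 members; Gsdmd and Gsdmc2 are only named. The 250 bases before each annotated start were searched on both strands for the interferon-stimulated response element (GAAA, any 2 bases, GAAA) and the NF-kappaB (kappaB) consensus, which occur before 2.98% and 7.25% of 32851 promoters in the table. The first had no match before a member, and the kappaB consensus had matches before Casp4, the second start of Nlrp3, and Naip5. These 3 are shown because they hold the matches, in capitals, and their genes carry called changes described below. Aim2, Pycard and Nlrp1b were also called in some comparisons, and no kappaB match lies before them. Casp4 has 3 matches, of which 2 overlap and form 1 run, and a start site 11 bases further on gives the same matches. They lie at chr9:5308599-5308848 (+), chr11:59541319-59541568 (+) and chr13:100247337-100247586 (-) of GRCm38.p6.
Casp4: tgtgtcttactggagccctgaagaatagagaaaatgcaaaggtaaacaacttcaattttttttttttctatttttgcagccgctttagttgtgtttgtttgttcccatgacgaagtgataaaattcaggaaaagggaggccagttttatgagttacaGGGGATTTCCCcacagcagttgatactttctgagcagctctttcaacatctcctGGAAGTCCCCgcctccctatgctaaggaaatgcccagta
Nlrp3: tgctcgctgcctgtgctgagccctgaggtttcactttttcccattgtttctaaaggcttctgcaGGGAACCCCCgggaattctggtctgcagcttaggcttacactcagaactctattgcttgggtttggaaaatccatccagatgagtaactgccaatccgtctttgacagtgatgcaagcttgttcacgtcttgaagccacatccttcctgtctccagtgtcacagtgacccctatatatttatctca
Naip5: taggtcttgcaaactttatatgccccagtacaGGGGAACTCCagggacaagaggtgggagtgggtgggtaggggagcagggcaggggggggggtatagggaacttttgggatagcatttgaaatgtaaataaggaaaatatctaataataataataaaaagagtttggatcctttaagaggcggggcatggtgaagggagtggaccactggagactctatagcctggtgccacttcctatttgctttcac
A match, or its absence, describes the letters in these windows only, and whether a factor was bound was not measured.

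Transcript levels per length were set side by side in Mlkl-/- intestines of the D387A set. The executioner Gsdmd had the highest level per length, with 127, 140.4 and 124 RPKM in the 3 embryos. Pycard followed at 80.7, 79.8 and 72.8 RPKM and Casp1 at 41.4, 42.6 and 44.4 RPKM. The flagellin sensor Naip5 had 27.9, 29.6 and 27.5 RPKM, above its partner Nlrc4 at 12.3, 11.5 and 11.2 RPKM, and Casp4 9.09, 9.80 and 7.90 RPKM. These 6 levels kept their order in every one of the 3 embryos without overlap. The order rests on the exonic widths used, 3800 bases for Pycard and 1776 for Gsdmd. By reads alone Pycard stood above Gsdmd, with 17404 against 13637 over the 3 embryos. The lengths of the transcripts present were not measured. Aim2 stood at 1.24, 0.851 and 1.53 RPKM, while Nlrp1b, Gsdmc2 and Nlrp3 had 0.402 to 0.520, 0.295 to 0.479 and 0.0647 to 0.222 RPKM. Nlrp1b and Gsdmc2 overlapped, and Nlrp3 lay below both. Nlrp3 rested on 5 to 18 reads per library and Gsdmc2 on 13 to 22, so their levels are the least precise.

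**Figure D1:**
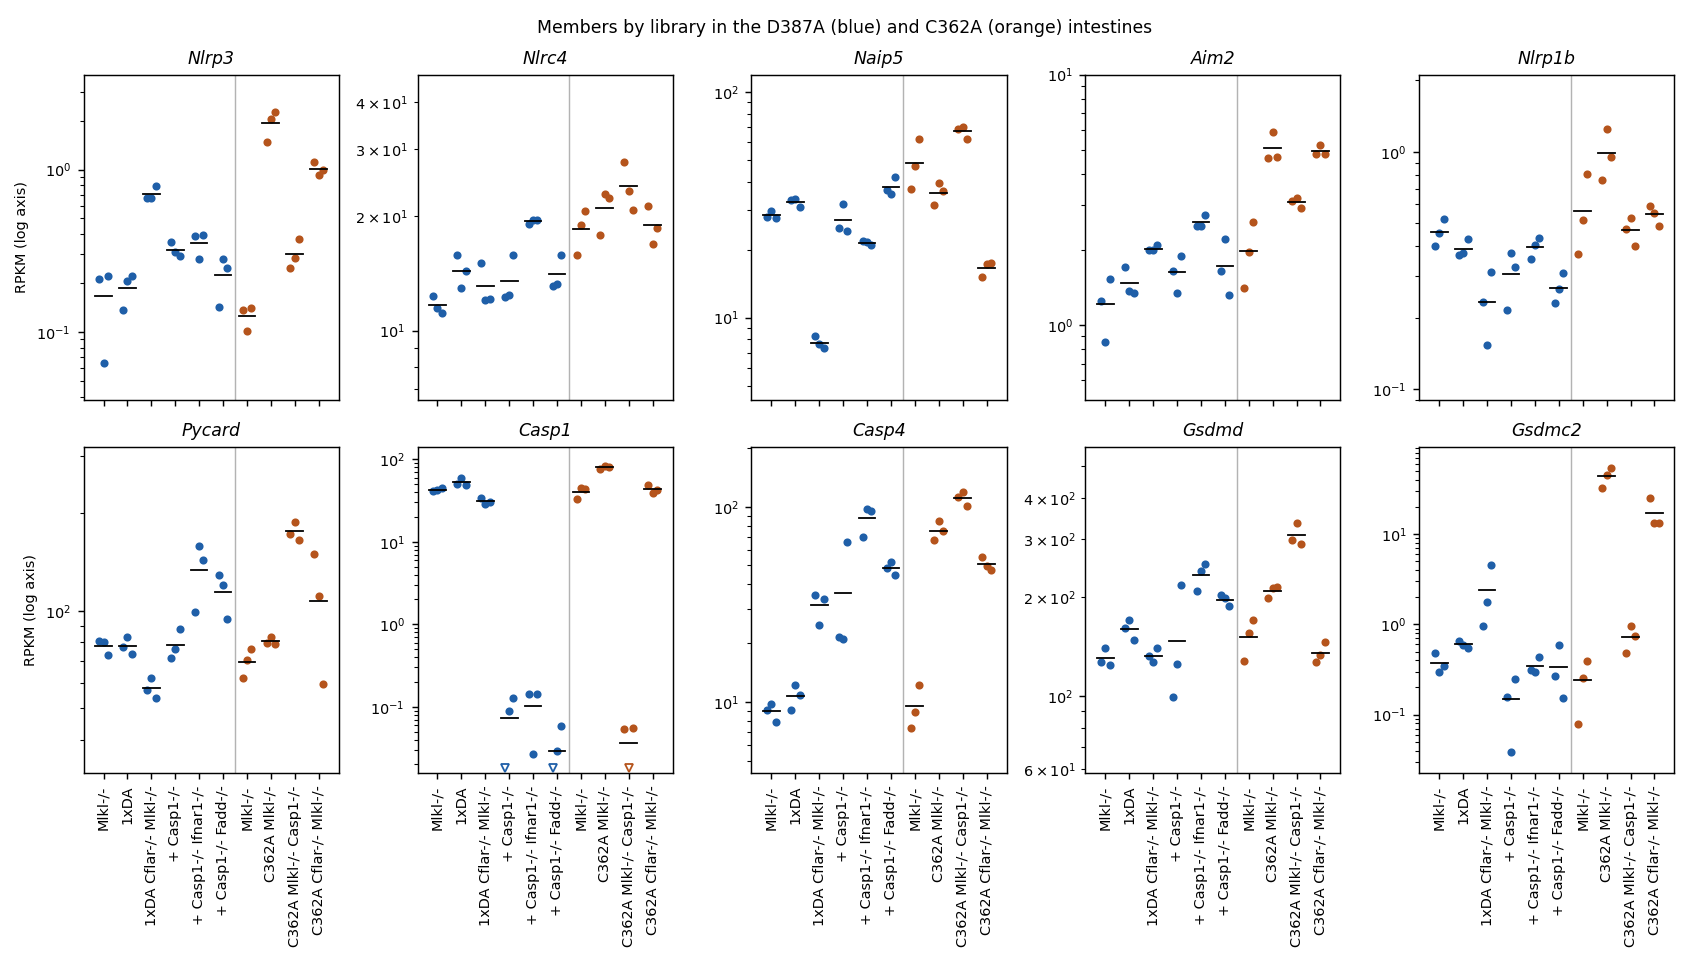
RPKM (log axis) of each member in the 3 libraries of every intestine genotype, with points for libraries, bars for group means and open triangles for libraries without a read; the D387A set is blue and the C362A set orange, and 1xDA and C362A stand for the homozygous Casp8 alleles. Casp4 lies above the Mlkl-/- libraries in every genotype that combines a Casp8 allele with Mlkl-/-, and Gsdmc2 reaches 32.2 to 54.3 RPKM in Casp8 C362A/C362A Mlkl-/- intestines against at most 0.395 RPKM in their controls.

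The D387A allele and loss of cFLIP were examined together, in 1xDA Cflar-/- against Mlkl-/- intestines, which differ at both genes. Nlrp3, Casp4 and Gsdmc2 RNA rose by more than 2-fold, and Naip5 RNA fell by more than 2-fold. With a log2 fold change beyond 1 and an adjusted p under 0.05 (edgeR quasi-likelihood test, Benjamini-Hochberg over 18360 genes), 4 of the 10 members were called, 3 higher and 1 lower, where 22.2% of all genes were called, 9.4% higher and 12.8% lower. Members had a median log2 fold change of 0.10 against -0.01 for all genes.

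Among the sensors, Nlrp3 had 0.670, 0.672 and 0.787 RPKM in 1xDA Cflar-/- intestines against 0.211, 0.0647 and 0.222 RPKM in Mlkl-/-, a log2 fold change of 2.08 ± 0.31 (SE, adjusted p = 2.05e-05). All 3 embryos lay above the controls. Naip5 had 8.27, 7.62 and 7.34 RPKM against 27.9, 29.6 and 27.5 RPKM, a log2 fold change of -1.87 ± 0.10 (SE, adjusted p = 7.19e-11). The 2 groups were far apart, and Nlrc4, through which NAIPs signal, showed no such fall: it had 15.03, 12.1 and 12.1 RPKM against 12.3, 11.5 and 11.2 RPKM, a log2 fold change of 0.17 ± 0.11 (SE, adjusted p = 0.210). The DNA sensor Aim2 differed by 0.74 ± 0.20 (SE, adjusted p = 0.00474) on the log2 scale. Nlrp1b differed by -0.97 ± 0.24 (SE, adjusted p = 0.00194). Both passed the adjusted p but not the 2-fold limit, and Nlrp1b, at 0.153 to 0.312 RPKM against 0.402 to 0.520 RPKM, passed both without the third embryo of the genotype (-1.25) or the first control (-1.05), and with limma-voom (-1.01).

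Of the adaptor and the caspases, Casp4 alone was called. It had 35.4, 24.8 and 33.6 RPKM against 9.09, 9.80 and 7.90 RPKM, a log2 fold change of 1.81 ± 0.33 (SE, adjusted p = 0.000150). Every embryo of the genotype stood far above the highest control. Casp1 itself was lower, at 34.1, 28.4 and 30.3 RPKM against 41.4, 42.6 and 44.4 RPKM, with a log2 fold change of -0.47 ± 0.14 (SE, adjusted p = 0.00735), and Pycard by -0.44 ± 0.15 (SE, adjusted p = 0.0160). Neither group overlapped its control, and neither change reached 2-fold.

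The gasdermins parted. Gsdmd had 132, 127 and 139 RPKM against 127, 140.4 and 124 RPKM, with a log2 fold change of 0.03 ± 0.19 (SE, adjusted p = 0.917) and a 95% confidence interval of -0.37 to 0.42, and the groups overlapped. Gsdmc2 had 0.969, 1.79 and 4.52 RPKM against 0.479, 0.295 and 0.345 RPKM, a log2 fold change of 2.70 ± 0.52 (SE, adjusted p = 0.000224). The 3 embryos differed widely among themselves, yet each was above every control. With a filter at a mean of 50 reads, Nlrp3 and Gsdmc2 are not tested and 2 members are called.

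Markers of other cell types moved with these members. The 10 enterocyte markers summed to 1516 to 2959.8 RPKM in 1xDA Cflar-/- intestines against 34297 to 39044 RPKM in Mlkl-/-, lower as Naip5 was. The 9 neutrophil markers, of which Elane had no read, summed to 65.7 to 237 RPKM against 8.39 to 34.7 RPKM, and the 11 macrophage and monocyte markers to 280.4 to 366 RPKM against 178 to 199 RPKM, higher as Nlrp3 was. The 10 T and NK cell markers summed to 29.6 to 43.9 RPKM against 11.1 to 12.8 RPKM, and 5 markers of leukocytes at large to 102 to 149 RPKM against 47.6 to 52.7 RPKM. Sums were also higher for fibroblasts, at 957 to 999 RPKM against 722 to 794 RPKM, for goblet cells, at 2244 to 3079 RPKM against 939.8 to 1918 RPKM, and for smooth muscle, at 3716 to 4685 RPKM against 2647 to 2858 RPKM. Those of enteric neurons and glia were lower, at 41.9 to 45.8 RPKM against 53.3 to 59.2 RPKM, and those of erythroid cells overlapped, at 682 to 1434 RPKM against 774 to 1670.1 RPKM. The 8 general epithelial markers summed to 2522 to 2730.0 RPKM against 1887 to 2139 RPKM. The part of these markers in the members' changes was not tested.

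The wider pathway moved in both directions, with 22 of 52 tested genes on 8 lists called higher and 7 lower. All 6 interferon-induced GTPases listed for the non-canonical pathway, namely 4 Gbp genes, Irgm1 and Irgb10, rose. So did 5 of 6 inhibitors and 4 of 9 genes of sensor licensing and restraint, a list that shares Cd14 with the macrophage markers. Of the 9 other sensors tested 2 rose and 3 fell, and of the other caspases 2 of 6 fell. The cytokine Il1b rose most in the lists, at 19.6, 20.5 and 32.4 RPKM against 0.221, 0.446 and 0.697 RPKM, with a log2 fold change of 5.73 ± 0.37 (SE, adjusted p = 7.92e-10). The other cytokine matured by caspase-1, Il18, fell, with a log2 fold change of -1.05 ± 0.16 (SE, adjusted p = 2.68e-05), and the gene of the membrane rupture protein Ninj1 fell by 1.15 on the log2 scale. Gsdme, a gasdermin cleaved by caspase-3, had a log2 fold change of -0.62 ± 0.29 (SE, adjusted p = 0.0761). Il1rn, an antagonist of the IL-1 receptor, and Gbp5 followed Il1b in size, with log2 fold changes of 4.71 and 4.0001.

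**Figure D2:**
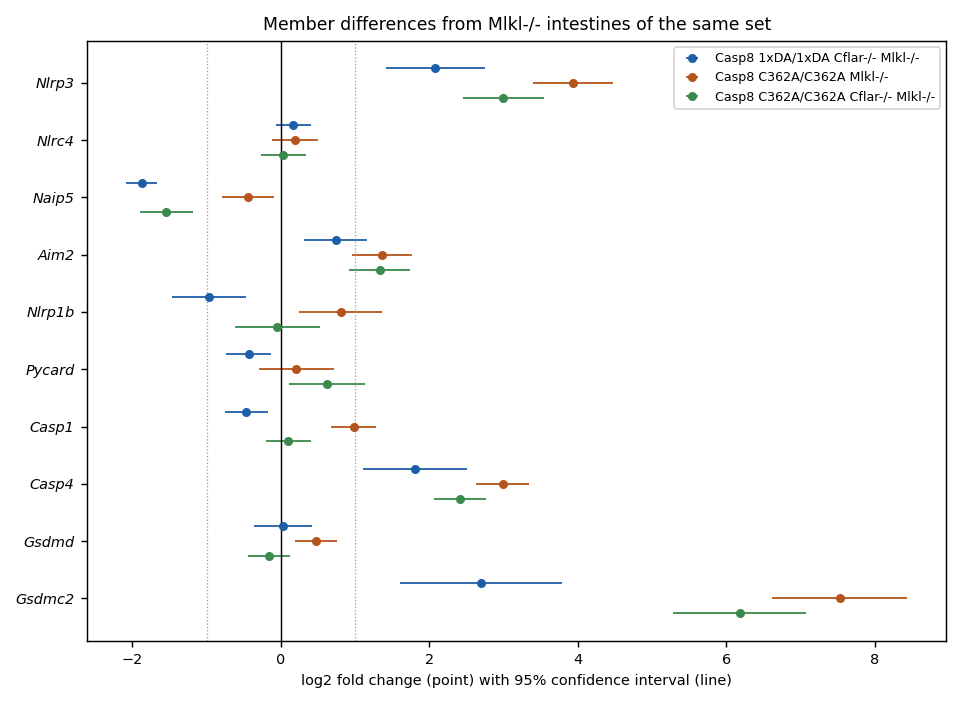
Log2 fold change of each member (points) with its 95% confidence interval (lines) in 3 genotypes against Mlkl-/- intestines of the same set, with dotted lines at the 2-fold limits. Nlrp3, Casp4 and Gsdmc2 lie above 1 in all 3 genotypes, Naip5 lies below -1 in both Cflar-/- genotypes, and Nlrc4 and Gsdmd lie between the limits in all 3.

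Casp8 1xDA/1xDA alone, with cFLIP and MLKL intact, was next set against Mlkl-/-. Casp4 had 9.08, 12.3 and 10.9 RPKM, Nlrp3 0.136, 0.206 and 0.220 RPKM and Gsdmc2 0.661, 0.595 and 0.553 RPKM. Casp4 and Nlrp3 overlapped the control range, as did Pycard, Aim2 and Nlrp1b, and Gsdmc2 lay above it. So did Casp1, at 48.6 to 58.7 RPKM against 41.4 to 44.4 RPKM, Gsdmd, at 148 to 170.2 RPKM against 124 to 140.4 RPKM, Nlrc4, at 12.9 to 15.8 RPKM against 11.2 to 12.3 RPKM, and Naip5, at 30.9 to 33.6 RPKM against 27.5 to 29.6 RPKM. In edgeR's quasi-likelihood test 0 of 10 members were called, against 0.00545% of all genes, and 3 members had an unadjusted p under 0.05, where 5.02% of genes did. The same count was 0 with limma-voom and DESeq2. Log2 fold changes ran from -0.23 for Nlrp1b to 0.68 for Gsdmc2, with a median of 0.27 for members against 0.02 for all genes. Enterocyte markers summed to 40687 to 42704 RPKM against 34297 to 39044 RPKM, and general epithelial markers to 2176 to 2305 against 1887 to 2139 RPKM. Fibroblast markers, at 588 to 697 against 722 to 794 RPKM, and markers of leukocytes at large, at 42.2 to 45.9 against 47.6 to 52.7 RPKM, were lower, and the part of these markers was not tested. Of 52 pathway genes 0 were called, and Il1b, Il18, Gsdme and Ninj1 differed by -0.62, 0.20, 0.21 and -0.05.

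Catalytically dead caspase-8 was examined in C362A intestines, in which cFLIP was intact. Gsdmc2, Nlrp3 and Casp4 rose here too, and Aim2 with them. Of the 10 members 4 were called, all higher, where 10.4% of genes were called higher, 7.55% lower and 18% in either direction, and the members' median log2 fold change was 0.89 against 0.02 for all genes. Gsdmc2 had 32.2, 45.2 and 54.3 RPKM against 0.0794, 0.253 and 0.395 RPKM in the Mlkl-/- intestines of this set, a log2 fold change of 7.53 ± 0.43 (SE, adjusted p = 7.31e-09). That is 2061 to 3481 reads per library against 5 to 21. Nlrp3 had 1.48, 2.05 and 2.26 RPKM against 0.136, 0.102 and 0.140 RPKM, a log2 fold change of 3.94 ± 0.25 (SE, adjusted p = 2.17e-08). Casp4 had 67.2, 84.1 and 74.9 RPKM against 7.38, 8.89 and 12.3 RPKM, a log2 fold change of 2.99 ± 0.17 (SE, adjusted p = 6.77e-09). In each of these genes the lowest embryo of the genotype was far above the highest control.

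Aim2 had 4.66, 5.89 and 4.69 RPKM against 1.40, 1.96 and 2.58 RPKM, a log2 fold change of 1.36 ± 0.19 (SE, adjusted p = 4.54e-05). Casp1 had 75.7, 82.9 and 80.9 RPKM against 33.1, 45.2 and 43.2 RPKM, a log2 fold change of 0.98 ± 0.14 (SE, adjusted p = 5.89e-05). Both groups were separate from their controls, with Casp1 just short of 2-fold; without the second control, the third control or the first embryo of the genotype it was called, and without the third control Nlrp1b was too (1.14). Nlrp1b differed by 0.81 ± 0.26 (SE, adjusted p = 0.0216) and Gsdmd by 0.47 ± 0.13 (SE, adjusted p = 0.0105) on the log2 scale. Naip5 had 31.4, 39.5 and 36.5 RPKM against 37.0, 47.1 and 61.5 RPKM, with a log2 fold change of -0.44 ± 0.16 (SE, adjusted p = 0.0407), and the groups overlapped. Pycard and Nlrc4 did not pass the adjusted p, at 0.21 ± 0.24 (SE, adjusted p = 0.514) and 0.19 ± 0.14 (SE, adjusted p = 0.321).

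With cFLIP also missing, in C362A Cflar-/- intestines, 5 of 10 members were called against Mlkl-/-, 4 higher and 1 lower, where 24.6% of genes were called, 13.4% higher and 11.2% lower. Gsdmc2 had 25.5, 13.2 and 13.3 RPKM and a log2 fold change of 6.18 ± 0.42 (SE, adjusted p = 3.16e-08). Nlrp3, at 1.10, 0.919 and 0.991 RPKM, differed by 3.00 ± 0.25 (SE, adjusted p = 2.56e-07). Casp4, at 55.1, 49.5 and 47.4 RPKM, differed by 2.42 ± 0.16 (SE, adjusted p = 3.27e-08). All 3 genes lay above every control. Aim2, at 4.83, 5.22 and 4.83 RPKM, differed by 1.33 ± 0.19 (SE, adjusted p = 4.23e-05). Naip5 fell to 15.2, 17.3 and 17.5 RPKM, a log2 fold change of -1.54 ± 0.17 (SE, adjusted p = 2.63e-06). Casp1, Gsdmd, Nlrc4 and Nlrp1b, with log2 fold changes from -0.16 to 0.10, did not pass the adjusted p. Pycard varied most, at 150.2, 111 and 59.3 RPKM against 62.2, 70.7 and 75.9 RPKM, with the third embryo below the controls and the others above, and a log2 fold change of 0.62 ± 0.24 (SE, adjusted p = 0.0405), past the adjusted p but under 2-fold.

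Set directly against C362A, loss of cFLIP called 2 of 10 members, both lower, where 4.62% of genes were called lower, 1.45% higher and 6.06% in either direction. They were Gsdmc2, with a log2 fold change of -1.34 ± 0.29 (SE, adjusted p = 0.00494), and Naip5, with -1.10 ± 0.16 (SE, adjusted p = 0.000520). By the adjusted p alone 7 members were lower, where 12.4% of genes were, among them Nlrp3 at -0.94 ± 0.20 (SE, adjusted p = 0.00529) and Casp1 at -0.88 ± 0.14 (SE, adjusted p = 0.000832). Without the first C362A embryo, Nlrp3 and Nlrp1b passed the 2-fold limit too and 4 members were called, and Nlrp3 also passed it without the first C362A Cflar-/- embryo (-1.02). Of 54 pathway genes 17 were lower and none higher, among them all 6 interferon-induced GTPases. Il1a, Il18bp and Gbp2 fell most, by 2.49, 1.93 and 1.87 on the log2 scale, and Gsdme fell by 1.28, while Il1b, Il18 and Ninj1 differed by 0.01, -0.10 and -0.36.

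Leukocyte markers differed between the same genotypes. The 9 neutrophil markers summed to 567 to 708 RPKM in C362A, 294 to 475 RPKM in C362A Cflar-/- and 17.1 to 48.3 RPKM in Mlkl-/- intestines, with reads for all 9 in each. The 11 macrophage and monocyte markers summed to 504 to 517, 341 to 463 and 152 to 185 RPKM, in the same order, and the 10 T and NK cell markers to 55.3 to 63.7, 40.6 to 58.2 and 10.4 to 13.03 RPKM. Markers of leukocytes at large summed to 212 to 223, 149 to 192 and 34.8 to 42.2 RPKM. Enterocyte markers summed to 14709 to 18288, 2419 to 7173 and 29884 to 48847 RPKM. Goblet cell markers summed to 3433 to 3677, 3001 to 4400.0 and 1433 to 2146 RPKM, and general epithelial markers to 2299 to 2881, 2032 to 2495 and 1737 to 1977 RPKM, both lists higher in either genotype than in the controls. Smooth muscle markers summed to 1729 to 2430.2, 3294 to 4088 and 1358 to 2170.2 RPKM, apart from the controls with cFLIP missing. Nlrp3 and Gsdmc2 followed the order of the leukocyte sums and Naip5 the order of the enterocyte sums. Median general epithelial sums, at 2739, 2480 and 1938 RPKM, had the same order as Nlrp3 and Gsdmc2, though C362A and C362A Cflar-/- overlapped. The part of these cells was not tested.

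**Figure D3:**
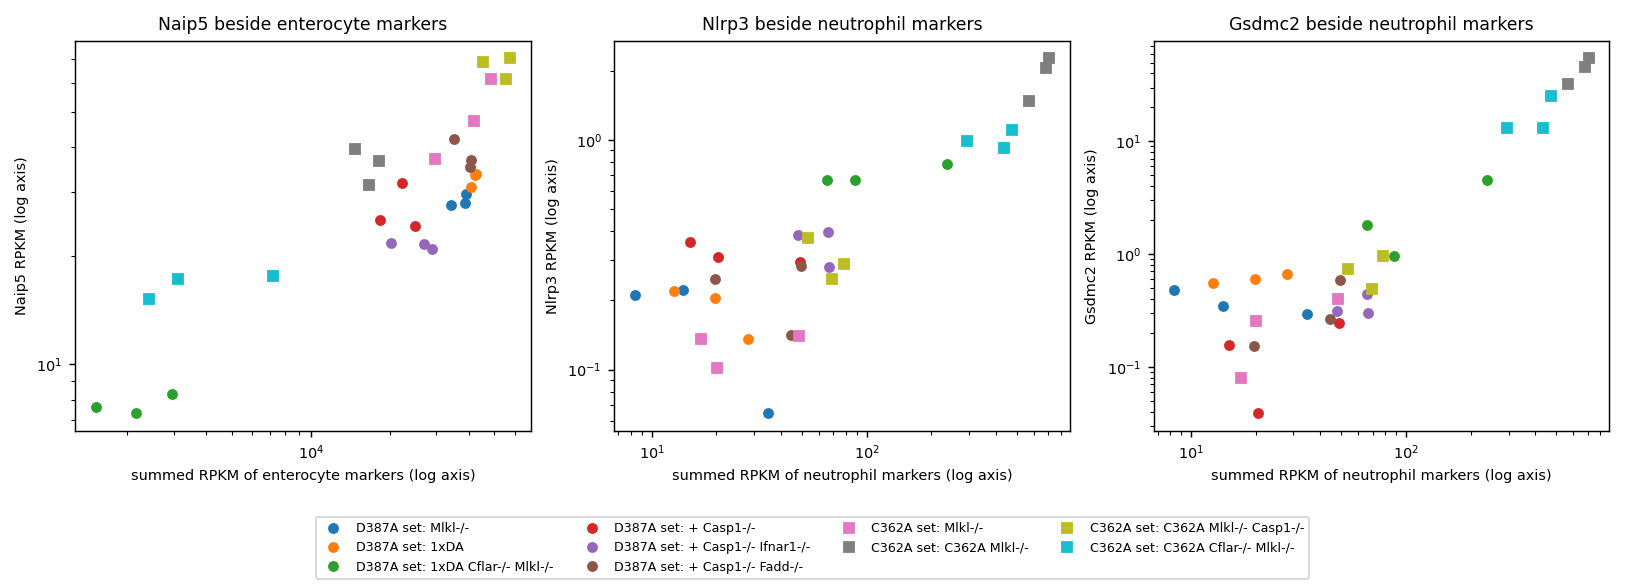
RPKM of Naip5 against the summed RPKM of 10 enterocyte markers, and of Nlrp3 and Gsdmc2 against that of 9 neutrophil markers, in the 30 intestine libraries (log axes; circles, D387A set; squares, C362A set; colours, genotypes; the sets were normalized separately). The 3 Casp8 1xDA/1xDA Cflar-/- Mlkl-/- libraries hold the lowest Naip5 levels, 7.34 to 8.27 RPKM, and the 3 Casp8 C362A/C362A Mlkl-/- libraries the highest Nlrp3 and Gsdmc2 levels; points share depth and tissue makeup, so no p is given.

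In the pathway lists, 33 of 54 tested genes were higher and 3 lower in C362A intestines, and 27 were higher and 5 lower with cFLIP also missing. All 6 interferon-induced GTPases rose in both. The gasdermins Gsdmc4 and Gsdmc3, close relatives of Gsdmc2 on the same chromosome, rose with it in C362A, with log2 fold changes of 6.62 and 5.65, and so did Zbp1, a sensor of Z-form nucleic acids, at 6.22. Il1b rose by 4.99 ± 0.33 (SE, adjusted p = 3.33e-08), while Il18 and Ninj1 differed by -0.36 ± 0.20 (SE, adjusted p = 0.175) and -0.57 ± 0.16 (SE, adjusted p = 0.0115). Gsdme, at 4.92, 4.95 and 5.04 RPKM against 1.86, 1.96 and 2.75 RPKM, rose by 1.18 ± 0.29 (SE, adjusted p = 0.00482).

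The changes in 1xDA Cflar-/- and in C362A Cflar-/- intestines, each against the Mlkl-/- controls of its set, were compared as an interaction contrast over 30 intestines and 19643 genes. Each change holds the Casp8 allele and loss of cFLIP together. At an adjusted p under 0.05, 0 of 10 members differed, where 0.127% of all genes did. The 1xDA Cflar-/- change minus the C362A Cflar-/- change was -3.48 ± 0.78 (SE, adjusted p = 0.0573) for Gsdmc2 and -1.06 ± 0.29 (SE, adjusted p = 0.0761) for Pycard, on the log2 scale. The same contrast called 1 member without the third 1xDA Cflar-/- embryo, 2 without the third C362A Cflar-/- embryo, 4 without the third Mlkl-/- embryo of the C362A set and 2 without a filter on low counts, each time with Gsdmc2 among them. By an unadjusted p under 0.05, 5 of the 10 members differed, where 20.6% of genes did.

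The part of Casp1 was read from Casp1-/- intestines on both backgrounds, over the 9 other members. Its loss lowered Nlrp3 and Gsdmc2 in both, raised Naip5 in D387A and Pycard in C362A, and lowered Nlrp1b in C362A. On the 1xDA Cflar-/- background 3 of 9 members were called, 1 higher and 2 lower, where 13.4% of genes were called, 8.88% higher and 4.51% lower. On the C362A background 4 of 9 were called, 1 higher and 3 lower, where 11.3% of genes were, 5.6% higher and 5.72% lower.

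Gsdmc2 fell furthest. It had 0.157, 0.0388 and 0.247 RPKM in 1xDA Cflar-/- Casp1-/- intestines, a log2 fold change of -4.04 ± 0.58 (SE, adjusted p = 2.52e-05) against those with Casp1. In C362A Casp1-/- it had 0.486, 0.952 and 0.741 RPKM, a log2 fold change of -5.92 ± 0.37 (SE, adjusted p = 1.2e-07). No Casp1-/- embryo overlapped the matching group with Casp1. Against Mlkl-/- controls, Gsdmc2 in Casp1-/- intestines was at -1.34 ± 0.70 (SE, adjusted p = 0.188) in the D387A set and 1.61 ± 0.51 (SE, adjusted p = 0.0238) in the C362A set, and the latter call was lost when the first or second control, or the second or the third Casp1-/- embryo, was left out, and with limma-voom (adjusted p = 0.0725).

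Nlrp3 had 0.358, 0.310 and 0.294 RPKM in D387A intestines without Casp1, and the log2 fold change was -1.14 ± 0.28 (SE, adjusted p = 0.00324). On the C362A background it had 0.247, 0.287 and 0.372 RPKM, a log2 fold change of -2.67 ± 0.23 (SE, adjusted p = 1.15e-06). Levels in both Casp1-/- groups lay above those of all Mlkl-/- controls of their set and below those with Casp1. Naip5 went the other way, to 25.0, 31.7 and 24.1 RPKM with a log2 fold change of 1.80 ± 0.10 (SE, adjusted p = 4.44e-10) in D387A. In C362A it reached 68.5, 70.1 and 61.6 RPKM, with 0.90 ± 0.16 (SE, adjusted p = 0.000787). In D387A the log2 difference from Mlkl-/- was then -0.07 ± 0.09 (SE, adjusted p = 0.636).

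Casp4 did not follow Nlrp3. It had 21.6, 20.9 and 65.8 RPKM in 1xDA Cflar-/- Casp1-/- intestines against 35.4, 24.8 and 33.6 RPKM with Casp1, a log2 fold change of 0.20 ± 0.31 (SE, adjusted p = 0.615). Without the third embryo, which stood apart, it was -0.56 (adjusted p = 0.00742), so its direction rests on that library. It remained the only member called against Mlkl-/-, at 2.01 ± 0.33 (SE, adjusted p = 0.000547) with that embryo and 1.25 (adjusted p = 7.27e-05) without it, where 4.34% of genes were called, 2.16% higher and 2.18% lower; without the third Mlkl-/- control, or with limma-voom, Nlrp3 was called too, at 1.20 and 1.08. In C362A Casp1-/- intestines Casp4 had 113, 119 and 101 RPKM, above every embryo with Casp1, a log2 fold change of 0.55 ± 0.15 (SE, adjusted p = 0.0124).

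Pycard and Gsdmd were high in C362A Casp1-/- intestines. Pycard had 173, 189 and 166 RPKM against 79.2, 82.7 and 79.2 RPKM with Casp1, a log2 fold change of 1.13 ± 0.24 (SE, adjusted p = 0.00248). Gsdmd had 299, 337 and 290.4 RPKM against 199, 213 and 215 RPKM, a log2 fold change of 0.56 ± 0.13 (SE, adjusted p = 0.00499). Against the Mlkl-/- controls 5 of 9 members were called, all higher, namely Casp4, Gsdmd, Pycard, Nlrp3 and Gsdmc2, where 6.79% of genes were called higher, 3.73% lower and 10.5% in either direction. Without the first control or the second Casp1-/- embryo this count was 3, the calls of Gsdmd and Gsdmc2 being lost. Neutrophil marker sums, at 53.6 to 78.2 RPKM, were above the 17.1 to 48.3 RPKM of these controls. Macrophage and monocyte sums were also higher, at 268 to 298 against 152 to 185 RPKM, as were those of leukocytes at large, T and NK cells and general epithelium. Those of enteric neurons and glia were lower, and the part of these markers was not tested. Nlrp1b had 0.471, 0.528 and 0.399 RPKM against 0.759, 1.25 and 0.946 RPKM with Casp1, a log2 fold change of -1.08 ± 0.26 (SE, adjusted p = 0.00643), which did not reach 2-fold without the second embryo with Casp1 or the third without it.

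**Figure D4:**
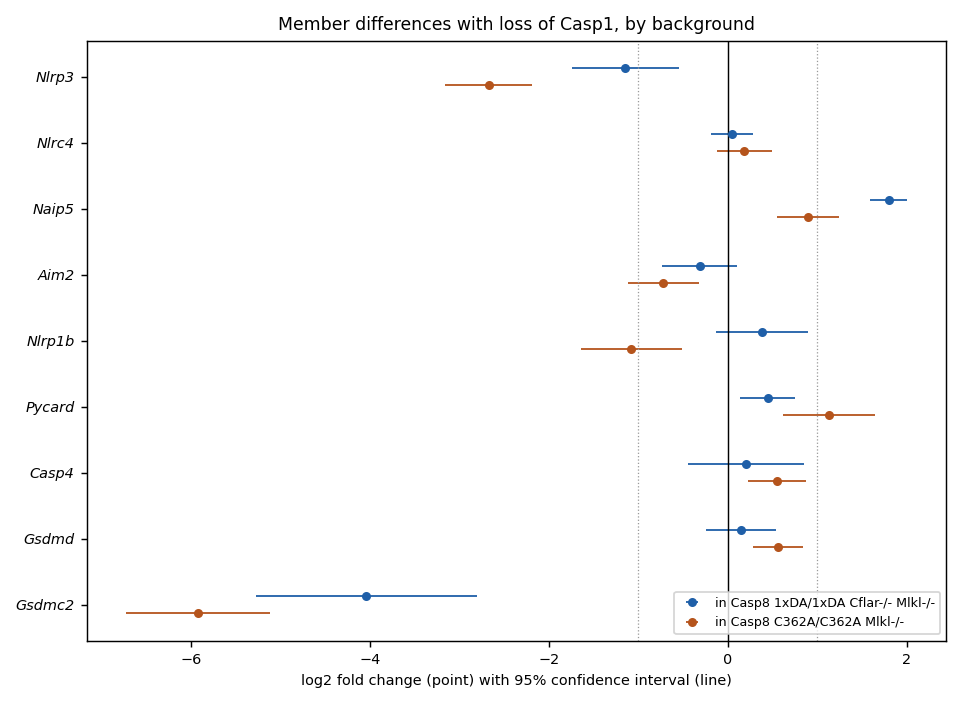
Log2 fold change of 9 members (points) with 95% confidence intervals (lines) between intestines without and with Casp1, on the Casp8 1xDA/1xDA Cflar-/- Mlkl-/- and the Casp8 C362A/C362A Mlkl-/- backgrounds, with dotted lines at the 2-fold limits. The points of Gsdmc2 and Nlrp3 lie below -1 on both backgrounds, that of Naip5 above 1 on the first and those of Pycard above 1 and Nlrp1b below -1 on the second.

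The 2 backgrounds also differ in Cflar, which is intact in the C362A pair. In the interaction contrast of Casp1 loss, 3 of 9 members differed at an adjusted p under 0.05, where 16.9% of genes did. The change in D387A minus that in C362A was 1.56 ± 0.37 (SE, adjusted p = 0.00570) for Nlrp3. It was 1.49 ± 0.38 (SE, adjusted p = 0.00862) for Nlrp1b and 0.93 ± 0.19 (SE, adjusted p = 0.00249) for Naip5. Without the third 1xDA Cflar-/- Casp1-/- embryo 5 members differed, the others being Casp4 at -1.08 and Gsdmd at -0.77. Without the third 1xDA Cflar-/- embryo Gsdmc2 differed as well, at 2.72.

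Marker sums moved with Casp1 loss as well. Neutrophil markers summed to 15.1 to 49.0 RPKM without Casp1 in D387A, where they had been 65.7 to 237 RPKM, and to 53.6 to 78.2 RPKM in C362A, where they had been 567 to 708 RPKM. Enterocyte markers summed to 18390.4 to 25002 and 45518 to 57582 RPKM without Casp1. The T and NK cell markers summed to 7.88 to 9.87 RPKM without Casp1 and 29.6 to 43.9 RPKM with it in D387A, and to 15.7 to 21.7 and 55.3 to 63.7 RPKM in C362A. Macrophage and monocyte markers summed to 232 to 375 and 280.4 to 366 RPKM in D387A, where the embryo that stood apart made the overlap (375 RPKM, against 248 and 232 RPKM in the others), and to 268 to 298 and 504 to 517 RPKM in C362A. Markers of leukocytes at large were lower without Casp1, at 58.5 to 82.0 against 102 to 149 RPKM in D387A and 71.9 to 85.7 against 212 to 223 RPKM in C362A. The 6 erythroid markers varied most in D387A without Casp1, at 1138 to 6541 RPKM against 682 to 1434 RPKM. Fibroblast markers were lower without Casp1, at 747 to 860.4 against 957 to 999 RPKM in D387A and 234 to 376 against 391 to 506 RPKM in C362A. Smooth muscle markers were lower in D387A, at 2384 to 2586 against 3716 to 4685 RPKM, and overlapped in C362A. Those of enteric neurons and glia were higher in D387A, at 46.5 to 59.4 against 41.9 to 45.8 RPKM, and lower in C362A, at 17.4 to 24.3 against 25.1 to 36.2 RPKM. Goblet cell sums on both backgrounds and general epithelial sums in D387A overlapped through 1 embryo without Casp1, the others lying below all with it, and general epithelial sums in C362A overlapped throughout. The part of these markers in the members' changes was not tested. Of the 10 tested genes within 1 Mb of Casp1, Casp12 was called lower beside Casp1 in the D387A comparison (-1.11) and none beside Casp1 in the C362A comparison.

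In the pathway, Casp1 loss lowered 12 and raised 6 of 52 tested genes in D387A, and lowered 14 and raised 3 of 54 in C362A. On the log2 scale Il1b differed by -3.40 and -4.60, and Gsdmc4 by -3.26 and -4.9972. Il18 differed by 0.71 and 0.73, and Ninj1 by 0.58 and 0.54, all past the adjusted p and under 2-fold. Gsdme rose in D387A by 1.04 ± 0.29 (SE, adjusted p = 0.00687), and in C362A differed by 0.22 ± 0.29 (SE, adjusted p = 0.584). Of the 6 interferon-induced GTPases 2 fell in D387A and 1 in C362A; Gbp2 was among them in both, and fell by 2.70 and 2.97. Compared with Mlkl-/-, the Casp1-/- intestines still had 15 of 52 pathway genes called higher in D387A and 22 of 54 in C362A, with none called lower, and all 6 interferon-induced GTPases were higher in both; Zbp1 led, at 3.23 and 6.51. In that comparison Il18 was at -0.34 and 0.37 and Ninj1 at -0.57 and -0.03, of which the D387A value of Ninj1 alone passed the adjusted p.

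Type I interferon reception was removed in addition to Casp1 in the D387A set. Casp4, a gene known to be induced by interferon, was higher without the receptor. It had 69.6, 97.5 and 95.5 RPKM in 1xDA Cflar-/- Casp1-/- Ifnar1-/- intestines, against 21.6, 20.9 and 65.8 RPKM with Ifnar1, a log2 fold change of 1.28 ± 0.31 (SE, adjusted p = 0.00571). All 3 embryos lay above the highest with Ifnar1, and without the embryo that stood apart the change was 2.04 (adjusted p = 5.18e-08). It was the only one of the 9 members other than Casp1 called, where 5.31% of genes were called, 3.28% higher and 2.03% lower; without that embryo Gsdmd was called too, at 1.05. When only these 2 groups were fitted, 0 were called, with an adjusted p of 0.0879 for Casp4.

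By the adjusted p alone, 5 members were higher and 1 lower without Ifnar1, where 15.5% of genes were higher and 15.1% lower. Pycard had 99.2, 159 and 143 RPKM against 71.4, 76.3 and 87.7 RPKM, a log2 fold change of 0.77 ± 0.15 (SE, adjusted p = 0.00146). Nlrc4 had 19.1, 19.5 and 19.5 RPKM against 12.2, 12.4 and 15.8 RPKM, a log2 fold change of 0.52 ± 0.11 (SE, adjusted p = 0.00272). Neither pair of groups overlapped. Gsdmd differed by 0.66 ± 0.19 (SE, adjusted p = 0.0135), Aim2 by 0.66 ± 0.20 (SE, adjusted p = 0.0176) and Naip5 by -0.33 ± 0.09 (SE, adjusted p = 0.0143). Against Mlkl-/- controls, 3 of 9 members were called, all higher, where 6.76% of genes were called higher, 5.64% lower and 12.4% in either direction. They were Casp4 at 3.29 ± 0.34 (SE, adjusted p = 1.32e-06), Nlrp3 at 1.08 ± 0.33 (SE, adjusted p = 0.0128) and Aim2 at 1.08 ± 0.20 (SE, adjusted p = 0.000313). Without the second control Casp4 was the only one called, and the call of Nlrp3 was also lost without the third embryo of the genotype (0.98) and with a prior count of 2 (0.99). Macrophage and monocyte sums, at 347 to 428 RPKM, were above the 178 to 199 RPKM of these controls. So were neutrophil sums, at 48.0 to 66.9 against 8.39 to 34.7 RPKM, and those of leukocytes at large, goblet cells and general epithelium. Enterocyte sums were lower, at 20315 to 29055 against 34297 to 39044 RPKM, as were those of smooth muscle, fibroblasts and enteric neurons and glia. Macrophage and monocyte markers summed to 347 to 428 RPKM without Ifnar1 and 232 to 375 RPKM with it, the latter 248 and 232 RPKM outside the embryo that stood apart, and goblet cell markers to 3055 to 4912 and 1333 to 2661 RPKM. General epithelial markers, at 2604 to 2729.7 and 1725 to 2561 RPKM, and T and NK cell markers, at 11.7 to 15.5 and 7.88 to 9.87 RPKM, were higher without Ifnar1. Those of enteric neurons and glia, at 36.05 to 37.1 and 46.5 to 59.4 RPKM, and of fibroblasts, at 626 to 651 and 747 to 860.4 RPKM, were lower. Neutrophil sums overlapped, at 48.0 to 66.9 and 15.1 to 49.0 RPKM, through the embryo that stood apart, and the part of these markers was not tested. Between the groups without and with Ifnar1, 15 of 52 genes in the pathway lists were higher and 0 lower. Serpinb9, an inhibitor of granzyme B, Il18bp, which binds IL-18, and Irgb10 led, with log2 fold changes of 2.29, 1.80 and 1.53, and Il1b and Gsdme rose by 1.13 and 1.09, while Il18 and Ninj1 differed by 0.61 and -0.09.

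Removing Fadd in addition to Casp1 called 0 of the 9 other members against 1xDA Cflar-/- Casp1-/- in edgeR's test, where 3.44% of genes were called; 3 had an unadjusted p under 0.05, where 31.6% of genes did, and limma-voom and DESeq2 also called 0. Casp4 had 48.8, 52.3 and 44.9 RPKM, a log2 fold change of 0.43 ± 0.31 (SE, adjusted p = 0.362). These levels lay between those of the first 2 embryos with Fadd and the third, and without the third the change was 1.19 (adjusted p = 2.94e-05) and Casp4 was called. Pycard had 129, 120.5 and 94.4 RPKM and a log2 fold change of 0.55 ± 0.15 (SE, adjusted p = 0.0151). Naip5 had 36.7, 35.2 and 41.9 RPKM and a log2 fold change of 0.49 ± 0.09 (SE, adjusted p = 0.00180). Both lay above every embryo with Fadd. Enterocyte markers summed to 35259.5 to 40744 RPKM, above the 18390.4 to 25002 RPKM with Fadd. Macrophage and monocyte markers, at 204 to 224 and 232 to 375 RPKM, markers of leukocytes at large, at 44.0 to 56.6 and 58.5 to 82.0 RPKM, and fibroblast markers, at 619.8 to 694 and 747 to 860.4 RPKM, were lower without Fadd; the part of these markers was not tested. In the pathway lists 8 of 52 genes were higher and 2 lower. Irgb10 and Trim30a rose by 2.18 and 2.02 on the log2 scale, Gsdma2 fell by 2.48 and Il1b fell by 1.33, while Il18, Gsdme and Ninj1 differed by 0.06, 0.30 and 0.34. Against Mlkl-/- controls Casp4 was the only one of 9 members called, at 2.45 ± 0.33 (SE, adjusted p = 7.84e-05), where 3.78% of genes were called, 2.81% higher and 0.975% lower.

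The order of mean Casp4 levels in the D387A set ran from Casp1-/- Ifnar1-/- through Casp1-/- Fadd-/-, Casp1-/- and 1xDA Cflar-/- to Casp8 1xDA/1xDA and Mlkl-/-, with means ± SD (n = 3) of 87.5 ± 15.6, 48.6 ± 3.69, 36.1 ± 25.7, 31.3 ± 5.66, 10.7 ± 1.60 and 8.93 ± 0.960 RPKM. Ranges overlapped between Casp1-/- Fadd-/- and Casp1-/-, between Casp1-/- and 1xDA Cflar-/-, and between Casp8 1xDA/1xDA and Mlkl-/-. The place of Casp1-/- rests on the embryo that stood apart, since its other embryos, at 21.6 and 20.9 RPKM, lay below every 1xDA Cflar-/- embryo. In the C362A set the order was Casp1-/-, C362A, Cflar-/- and Mlkl-/-, with means ± SD (n = 3) of 111 ± 9.32, 75.4 ± 8.47, 50.7 ± 3.98 and 9.51 ± 2.50 RPKM, and no neighbours overlapped. Nlrp1b was the only member for which each neighbour in the order overlapped the next in both sets, with means ± SD from 0.458 ± 0.0595 down to 0.232 ± 0.0796 RPKM in D387A and from 0.983 ± 0.245 down to 0.466 ± 0.0646 RPKM in C362A.

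MEFs of the same genotypes were compared to see the members outside the intestine. Mean levels were lower there than in the matching intestines for every member, with the sets normalized separately, although single libraries overlapped for Nlrp3. The study's methods name another library kit for these MEFs than for the intestines, so kit and tissue cannot be told apart. Gsdmd, the most abundant, had 6.40, 9.77 and 8.86 RPKM in Mlkl-/- MEFs. Casp1 had 0.434, 0.394 and 0.344 RPKM and Pycard 0.415, 0.570 and 0.394 RPKM, far below the intestinal levels. Gsdmc2 had no read in any of the 6 libraries, which allows at most 0.0612 RPKM per library (3 reads). Nlrp3, Nlrc4, Nlrp1b, Naip5 and Gsdmc2 were too low to be tested.

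Casp4 had the largest difference between MEF genotypes among the 5 members tested, short of the adjusted threshold in the main fit, which leaves out the pairing of cultures by number. It had 2.00, 2.67 and 2.62 RPKM in 1xDA Cflar-/- MEFs against 0.539, 0.640 and 0.848 RPKM in Mlkl-/- MEFs, a log2 fold change of 1.86 ± 0.25 (SE, adjusted p = 0.0567). The groups did not overlap. In this fit (edgeR's test) 0 of the 5 members tested were called, where 0.0711% of 15465 genes were, and 1 had an unadjusted p under 0.05, where 6.47% of genes did. Same-numbered MEF libraries deviated together, and with the replicate number as a block Casp4 was called, at 1.85 (adjusted p = 0.0256); it was also called with DESeq2 (1.41e-05) and without a filter on low counts (0.000540). Casp1, Gsdmd, Pycard and Aim2 had log2 fold changes of 0.19 ± 0.32 (SE, adjusted p = 0.949), 0.08, -0.23 and -0.54, with overlapping groups. The 11 macrophage and monocyte markers summed to 119 to 153 RPKM against 50.1 to 64.0 RPKM in Mlkl-/- MEFs, where Ly6c2 had no read, and their part was not tested. Of 39 pathway genes tested 0 were called in the main fit, and Il18, Gsdme and Ninj1 differed by 0.02, 0.02 and 0.18. Gbp5 had the largest log2 fold change among them, 4.16 ± 0.81 (SE, adjusted p = 0.198, edgeR's test).

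**Figure D5:**
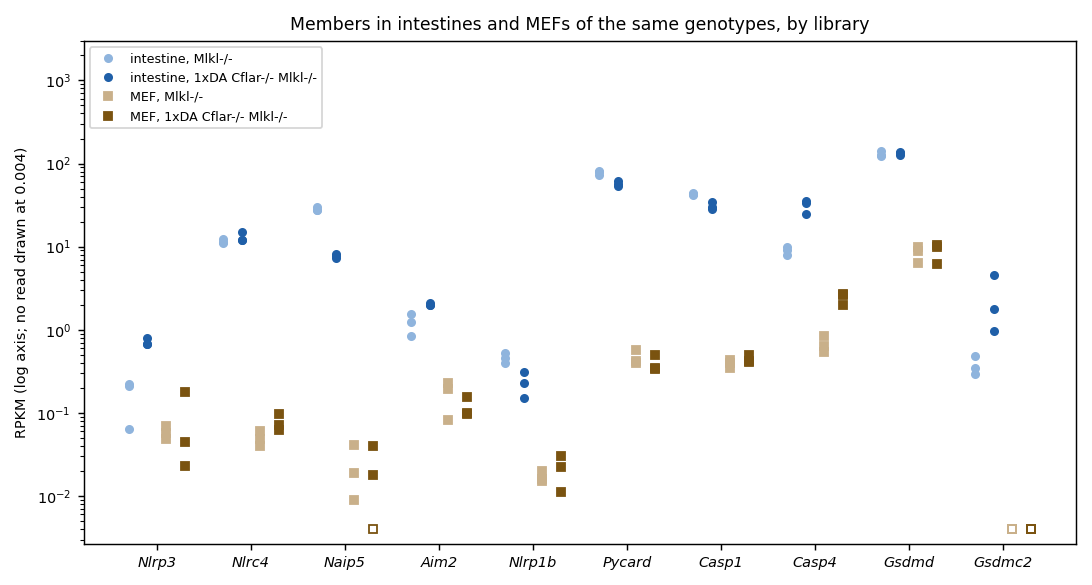
RPKM (log axis) of each member in the 3 libraries of Mlkl-/- and Casp8 1xDA/1xDA Cflar-/- Mlkl-/- intestines (circles) and MEFs (squares); open symbols at the lower edge are libraries without a read, and intestines and MEFs were normalized separately. Levels in MEFs lie below those in intestines of the same genotype for all members but Nlrp3, whose Mlkl-/- libraries overlap, and Casp4 alone is separate between the MEF genotypes among the 5 members tested.

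In the interaction contrast, the effect in intestines minus that in MEFs was -0.06 ± 0.25 (SE, adjusted p = 0.908) for Casp4, with a 95% confidence interval of -0.60 to 0.49. Of the 5 members tested in MEFs, Aim2 was the 1 called, at 1.29 ± 0.48 (SE, adjusted p = 0.0469), where 40.9% of genes were; in MEFs it rested on 5 to 20 reads per library. The call was lost with the replicate number as a block (adjusted p = 0.0596), without a filter (0.0620) and when any of 9 of the 12 libraries was left out, while Casp1 passed with a filter at a mean of 50 reads (-0.66) and without the first 1xDA Cflar-/- intestine (-0.71).

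The genes whose levels were most alike to each member's were sought by Pearson's r of log2 levels within the D387A set, as a description over libraries that share genotype and tissue makeup. Gsdmc4 was most like Gsdmc2, with r of 0.974 over 18 libraries of the D387A set and 0.995 over 12 of the C362A set. For Casp4 it was Slfn4, with 0.981 and 0.964. For Naip5 it was Prdm1, with 0.989 and 0.944. These 3 likenesses held in both sets, whereas the genes most like Aim2 and Nlrp1b, Adcy8 and Anxa9, had r of 0.894 and 0.870 in the D387A set and 0.189 and -0.05 in the C362A set.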

How the data were processed

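The deposited tables hold, per gene and library, raw counts of reads on exons and RPKM values. According to the study's methods, the authors aligned single-end 50-base reads to GRCm38/mm10 with GSNAP and kept uniquely mapped reads; the counting program, annotation and use of strand are not given in the sources used here, and the library kit and instrument are described differently in the labels and the methods. Levels printed here are RPKM computed from the deposited counts, the exonic width in the files and edgeR's TMM-scaled library size within each set, not the deposited RPKM values, which served only to check units.

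Genes were filtered with edgeR 4.0.16 (R 4.3.3; filterByExpr, minimum count 10, total 15) and tested by its quasi-likelihood test over all genes of a set (18360 in D387A intestines, 19408 in C362A intestines, 15465 in MEFs), with Benjamini-Hochberg adjustment, 2-sided. A gene was called with an adjusted p under 0.05 and a log2 fold change beyond 1; interaction contrasts were called on the adjusted p. Casp1 was not counted where a Casp1-/- group was compared, nor, against MEFs, members too low to be tested there. Each genotype has 3 libraries of separate embryos or cultures as labelled, and each fit shares 1 estimate of the spread over all genotypes of its set. DESeq2 1.42.0 and limma-voom (limma 3.58.1) served as other tests, beside other normalizations, filters and prior counts, a replicate block, and leaving out each library. In MEFs all 3 same-numbered pairs deviated together (r from 0.28 to 0.498), so the numbers were taken to pair the cultures. The main MEF fit leaves this pairing out, and only the replicate block takes it in. The edgeR script was checked on simulated counts.

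Members and gene lists were chosen with earlier results of these data known. Named were all 10 members, Il1b, Il18, Gsdme and Ninj1, and in main comparisons up to 3 list genes with the largest called change. Irgb10 is listed as Gm12250, and Card16 was not found. Markers of intestinal smooth muscle, enteric neurons and glia, T and NK cells, leukocytes at large and erythroid cells were summed likewise. The result for 1 promoter motif is not reported here.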

Additional observations from a re-analysis of the deposited data

Results flagged for a closer look

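In 4 cases the change in a member differed between 2 settings by a test of the difference itself. The change in Nlrp3 with loss of Casp1 was higher in the D387A than in the C362A intestines by 1.56 on the log2 scale (edgeR quasi-likelihood test over 30 intestines, adjusted p = 0.00570). Nlrp3 was lower in both backgrounds, at -1.14 and -2.67. For Nlrp1b the difference was 1.49 (adjusted p = 0.00862), between 0.38 in D387A, which did not pass the test, and -1.08 in C362A. For Naip5 it was 0.93 (adjusted p = 0.00249), with 1.80 in D387A and 0.90 in C362A. Cflar is missing from the D387A pair and intact in the C362A pair, so the part of the Casp8 allele cannot be told apart from that of Cflar. For Aim2 the change in the 1xDA Cflar-/- genotype against Mlkl-/- was higher in intestines than in MEFs by 1.29 (adjusted p = 0.0469), between 0.74 and -0.54, of which the latter did not pass the test, and leaving out 1 library at a time ended the call for every library but the third of each MEF genotype and the third Mlkl-/- intestine.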

How the results depend on the processing

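Of 2133 alternatives over 151 member values, 2029 left direction and call as they were, 25 lost a call and 31 gained one, and 48 had the other sign, 47 of them short of the adjusted p on either side. The remaining one was Casp4 for loss of Casp1 in D387A, 0.20 with all embryos, which ran from -0.56 without the third Casp1-/- embryo to 0.48 without the second. In 25 values a call changed in at least 1 alternative, or the direction did in this last way. The counts that moved by over 1.5 times were the following, and the cause was not tested unless stated. With limma-voom, 2 members in place of 1 were called in 1xDA Cflar-/- Casp1-/- against Mlkl-/-. With a filter at a mean of 50 reads, fewer members are tested, and 2 were called in 1xDA Cflar-/- against Mlkl-/- and 1 for loss of Casp1 in D387A. With only the 2 groups compared, loss of Ifnar1 called 0. In MEFs DESeq2, no filter on low counts and the replicate block each called 1, Casp4. In the comparison of Cflar-/- effects between the sets, no filter on low counts called 2. In that of intestine with MEF, no filter called 0, the mean-50 filter 2 and the replicate block 0.

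Leaving out 1 library at a time gave 1 to 2 calls for 1xDA Cflar-/- Casp1-/- against Mlkl-/- and 1 to 3 with Ifnar1-/- added. It gave 1 to 2 for loss of Ifnar1, 0 to 1 for loss of Fadd, 3 to 5 for C362A Casp1-/- against Mlkl-/-, and 2 to 4 for loss of cFLIP in C362A. For the between-set comparisons, in which leaving out libraries was added after the data were seen, it gave 0 to 4 for the Cflar-/- effects, 3 to 5 for loss of Casp1, and 0 to 1 for intestine against MEF, over the 5 members tested in MEFs. In that last one the count was 0 without the first or the second Mlkl-/- intestine, the second or the third 1xDA Cflar-/- intestine, or the first or the second MEF library of either genotype.

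Same-numbered intestines did not deviate together (over 0.1 in 13 of 45 pairs in D387A and 6 of 18 in C362A), so the numbers do not pair them, and the replicate block changed no call there among the members. RPKM scaled by raw totals moved 95 of 120 mean levels by less than 1 SD and 25 by more. Depth limited Nlrp3 and Gsdmc2 in Mlkl-/- intestines and Aim2 in MEFs, which rest on few reads.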
